A study of Homo sapiens with 6 samples.

Results

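The genes described here are 9 protein-coding genes taken as immediate early and KLF genes: FOS, JUN, JUNB, JUND, EGR1, DUSP1, KLF2, KLF4 and KLF6. They were chosen by name, and stand among 20162 protein-coding genes annotated on GRCh37 and 19663 on GRCh38. The study asked how knockout (KO) of mutant NPM1 (mtNPM1) changes active enhancers and promoters of acute myeloid leukemia (AML) cells. OCI-AML3, an established human AML line that carries the NPM1 mutation on 1 allele together with mutations of DNMT3A and NRAS, received either the control guide RNA sgNeg or sgNpm1A, a guide RNA directed at mtNPM1, and was kept in culture for 72 h per the labels. ChIP-seq for H3K27Ac (acetylated lysine 27 of histone H3) and for H3K4me3 (trimethylated lysine 4) gave 1 library for each guide RNA and mark. These 4 peak lists are compared below, and the 2 inputs were not used here. The mutations of OCI-AML3 are shared by both groups. No clone was named, and peak lists hold no base calls, so the KO itself cannot be seen in these data.

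Immediate early genes are transcribed within minutes of a stimulus, without new protein synthesis, through factors such as SRF with its ETS partners and CREB that already sit at their promoters. FOS and JUN proteins pair to form the AP-1 transcription factor, EGR1 is a zinc finger transcription factor, and DUSP1 is a phosphatase that switches off the MAP kinases that induce these genes. KLF2, KLF4 and KLF6 are zinc finger factors that bind CACCC and GC-rich sites, and KLF2 and KLF4 are known in monocytes and other myeloid cells. H3K27Ac is found at active promoters and enhancers, and H3K4me3 at active promoters, where it lies on the first nucleosomes of the gene.

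With 1 library in each group there was no spread between replicates, so no p-value is given and every difference is one between single libraries. The H3K27Ac lists held 327715 peaks in sgNeg and 317059 in sgNpm1A, whereas the H3K4me3 lists held 353628 and 106641. The depth of the libraries is unknown. The H3K4me3 fold values rest on a constant background of 3.81 fragments for sgNeg and 2.93 for sgNpm1A. On the assumption that fragments are as long as the narrowest peak (110 and 245 bp), the sgNpm1A H3K4me3 library held 0.346 times as many fragments as that of sgNeg. Of 7 myeloid markers, such as SPI1, CEBPA and MPO, 7 had a H3K27Ac and 5 a H3K4me3 promoter peak in sgNeg, with no H3K4me3 promoter peak at CD33 or LYZ. Of 4 B cell markers, 4 had a H3K27Ac and 0 a H3K4me3 promoter peak, and of 3 erythroid markers 1 and 0. The counts were 2 and 1 of 3 T cell markers, 2 and 0 of 2 liver markers, 2 and 0 of 2 epithelial markers, and 1 and 2 of 2 neuronal markers, so promoter peaks were also listed for markers of other cell types. In sgNpm1A, 5 of the 7 myeloid markers had a H3K27Ac and 0 a H3K4me3 promoter peak, and 7 of 7 had a lower H3K27Ac percentile than in sgNeg. As deposited, the lists of the marks bear different name tags of unstated meaning, so the marks are not compared with each other in size.

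The sequences just before the start of 4 of the genes are shown first, as examples of the 8 that lie wholly under a H3K27Ac peak in sgNeg and under no peak in sgNpm1A. EGR1, JUND and DUSP1 were taken for their CArG boxes or full cAMP response element, and FOS for its TATA box and as the gene with the most covered window in sgNeg. Each holds the 250 bases before the RefSeq start on GRCh38.p14, written 5′ to 3′ on the strand of the gene. Capitals mark the CArG box (the core of the serum response element bound by SRF), the cAMP response element TGACGTCA with its shorter form TGACG, which reads CGTCA on the other strand, and the TATA box TATAAA. They come from chr5:138465229-138465478 (EGR1, plus strand), chr14:75278578-75278827 (FOS, plus strand), chr19:18281623-18281872 (JUND, minus strand) and chr5:172771196-172771445 (DUSP1, minus strand).
EGR1: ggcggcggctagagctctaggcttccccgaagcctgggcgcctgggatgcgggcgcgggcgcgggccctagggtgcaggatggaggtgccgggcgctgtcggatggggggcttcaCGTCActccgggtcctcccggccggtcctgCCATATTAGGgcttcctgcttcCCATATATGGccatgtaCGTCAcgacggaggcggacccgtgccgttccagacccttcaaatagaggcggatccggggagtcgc
FOS: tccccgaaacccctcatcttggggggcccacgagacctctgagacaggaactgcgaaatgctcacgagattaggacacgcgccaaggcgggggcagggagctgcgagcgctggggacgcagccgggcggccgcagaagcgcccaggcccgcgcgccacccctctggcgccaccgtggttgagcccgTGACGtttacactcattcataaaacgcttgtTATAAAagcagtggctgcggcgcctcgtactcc
JUND: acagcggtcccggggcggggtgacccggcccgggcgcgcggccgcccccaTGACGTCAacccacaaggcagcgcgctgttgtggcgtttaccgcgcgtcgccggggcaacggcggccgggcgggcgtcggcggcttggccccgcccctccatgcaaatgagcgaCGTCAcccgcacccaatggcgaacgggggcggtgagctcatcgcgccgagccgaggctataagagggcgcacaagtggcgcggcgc
DUSP1: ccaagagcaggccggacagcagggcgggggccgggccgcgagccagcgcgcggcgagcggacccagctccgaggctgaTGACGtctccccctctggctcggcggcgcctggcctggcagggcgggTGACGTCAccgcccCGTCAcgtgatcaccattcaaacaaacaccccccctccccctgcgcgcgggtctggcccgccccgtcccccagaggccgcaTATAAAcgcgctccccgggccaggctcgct

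Within these 250 bases, EGR1 held 2 CArG boxes, from 105 to 96 and from 83 to 74 bases before its start. None of the other windows held this motif, which 1.14% of 15843 RefSeq promoters of the same length hold. Bases farther from the start were not searched, so a gene without a motif here may hold it beyond its window. JUND and DUSP1 held the full cAMP response element, found in 2.32% of promoters, from 200 to 193 and from 125 to 118 bases before the start. The shorter form, which the full element holds on both strands, was present in 7 of the 9 genes (all but KLF2 and KLF6) against 25.6% of promoters. A TATA box was present in FOS, JUNB and DUSP1 against 9.23% of promoters. The site bound by EGR proteins, GCGNGGGCG, was present in EGR1, KLF2, KLF4 and KLF6 against 11.3%. The GC box GGGCGG, which can overlap it, was present in 7 genes against 56.0%, and the box CACCC in 6 genes, with none of the 3 KLF genes among them, against 57.9%. The AP-1 site TGANTCA, held by 5.04% of promoters, was not among the letters of any of the 9 windows. All motifs were searched on both strands. A match describes the letters only.

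Only the sgNeg H3K27Ac list held peaks over these 250 bases. Each sequence matched GRCh37 once, so it could be placed in the H3K27Ac lists. In sgNeg, 250 of 250 bases lay under a H3K27Ac peak in 8 of the 9 genes, and 0 in KLF2, whose peak began just after the start. In sgNpm1A, 0 bases lay under a H3K27Ac peak in any of the 9. The share of all promoters covered in this way was not computed. A H3K27Ac peak over the gene start itself was listed for 48.7% of all genes in sgNeg and 7.56% in sgNpm1A. No base lay under a H3K4me3 peak in any gene in either list, and the H3K4me3 promoter peaks lay beyond this stretch on either side. A H3K4me3 peak over the gene start was listed for 11.4% of all genes in sgNeg and 1.76% in sgNpm1A.

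H3K27Ac covered the promoters of all 9 genes in sgNeg and of 2 in sgNpm1A. A promoter was taken as 1 kb on either side of any annotated transcript start, and a percentile is the share of peaks in the same list with the same or a lower fold enrichment, with 0 for no peak. A promoter peak was listed for 79.1% of all genes in sgNeg and for 57.0% in sgNpm1A. The 2 genes with one in sgNpm1A were FOS and KLF4, and both peaks lay near transcript starts inside the gene. When the start of the gene record alone was used, 0 of 9 genes had a promoter peak in sgNpm1A. A peak in sgNeg and none in sgNpm1A was found for 7 of the 9 genes and for 26.9% of all genes. Of the 15950 genes with a promoter peak in sgNeg, as all 9 had, 5430 had none in sgNpm1A. The median percentile of the 9 genes was 97.7 in sgNeg and 0 in sgNpm1A, and that of all genes 92.4 and 23.

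Among the AP-1 genes, FOS (chr14:75745529-75748933, GRCh37) had a sgNeg peak of 6496 bp across its start, with a fold enrichment of 4.64 at percentile 97.7. In sgNpm1A the FOS promoter peak was 697 bp wide, began 2.36 kb downstream of the gene start, and had a fold of 3.29 at percentile 82.6. The narrower peak thus sat at the far end of the gene, where the sgNeg peak had also reached. JUN (chr1:59242517-59249720), the main partner of FOS, had a weaker sgNeg peak of 2027 bp with a fold of 3.15 at percentile 84.1, below the median of all genes. No JUN promoter peak was listed in sgNpm1A, and the nearest peak lay 10.4 kb downstream of the start.

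JUNB and JUND, the AP-1 subunits that often counter or replace JUN, had the highest H3K27Ac of the AP-1 genes. JUNB (chr19:12902300-12904129) lay under a sgNeg peak of 13044 bp that reached 9.84 kb upstream, with a fold of 7.82, which ranked 679 of 327715 by fold and 418 by width. JUND (chr19:18390504-18392432) lay under a sgNeg peak of 4689 bp with a fold of 8.19, which ranked 518 by fold. Neither had a promoter peak in sgNpm1A. For JUND the nearest sgNpm1A peak was 1.11 kb upstream, with a fold of 2.66, the lowest value in that list. For JUNB it was 4.46 kb downstream, with a fold of 3.33.

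EGR1 (chr5:137801168-137804992) had a sgNeg peak of 2620 bp across its start with a fold of 7.66 at percentile 99.8. No sgNpm1A peak was listed within 1 kb of the start, and the nearest was a 532 bp peak 1.38 kb downstream with a fold of 2.66. DUSP1 (chr5:172195099-172198198) had a lower sgNeg peak, 2267 bp wide with a fold of 3.17 at percentile 85.0. Its nearest sgNpm1A peak lay 1.98 kb downstream, with a fold of 2.84. EGR1 and DUSP1 thus differed in the strength of their sgNeg promoter peak. Both had sgNpm1A peaks on both sides of an unlisted promoter, as did JUN, JUNB, JUND, KLF2 and KLF6.

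The KLF genes had sgNeg promoter peaks of different widths. KLF2 (chr19:16435637-16439496), a factor of quiescence in T cells and endothelium, had the narrowest main peak of the 9 genes, 762 bp from 34 bp downstream of the start with a fold of 3.48 at percentile 92.7. KLF4 (chr9:110247133-110252763), which promotes monocyte differentiation, had a 1145 bp peak across its start with a fold of 4.21 and a 1089 bp peak inside the gene with a fold of 2.70. In sgNpm1A, KLF4 had 1 promoter peak of 244 bp, 2.07 kb downstream of the gene record start, with a fold of 2.91 at percentile 45.3. This peak overlapped the weaker of the sgNeg peaks. KLF6 (chr10:3818188-3827473), a widely expressed factor, had a 6023 bp peak with a fold of 6.59 at percentile 99.5 and a 611 bp peak inside the gene with a fold of 2.89, and no promoter peak in sgNpm1A. The nearest sgNpm1A peak was 1.88 kb upstream of KLF2 and 9.25 kb upstream of KLF6.

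Over the 9 genes, the distance from the gene start to the nearest sgNpm1A H3K27Ac peak had a median of 2070 bp and ran from 1111 to 10398 bp. The median of all genes was 2281 bp, so the median of the 9 genes was not larger than that of other genes. In sgNeg a peak lay over the start in 8 of 9 genes and in 48.7% of all genes, and in sgNpm1A in 0 of 9 and in 7.56%. Peaks over a start were thus few in the sgNpm1A list as a whole.

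**Figure D1:**
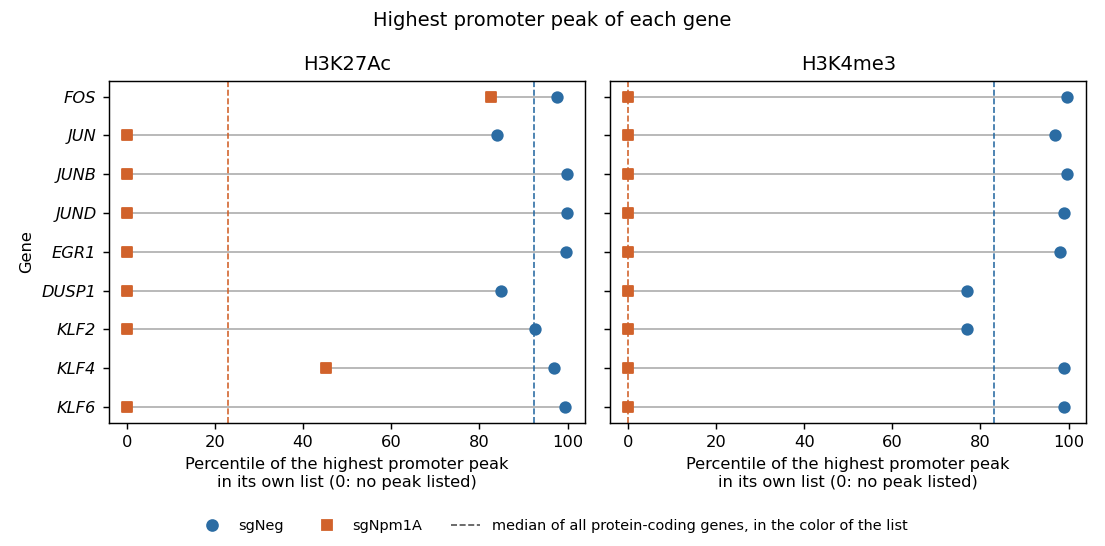
Percentile of the highest promoter peak of each gene within its own list, for H3K27Ac (left) and H3K4me3 (right), with circles for sgNeg, squares for sgNpm1A, 0 for no listed peak and dashed lines for the median of all protein-coding genes. All 9 sgNpm1A H3K4me3 values are 0, and only FOS and KLF4 lie above 0 in the sgNpm1A H3K27Ac list.

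The wider surroundings of the genes, meaning the gene body with 20 kb on either side, held 96 H3K27Ac peaks in sgNeg and 58 in sgNpm1A. In sgNeg, 11 were promoter peaks and 85 distal, of which 43 lay upstream, 39 downstream and 3 in the body. In sgNpm1A, 2 were promoter peaks and 56 distal, with 28 upstream, 26 downstream and 2 in the body. Peaks covered 122.2 kb of 400.1 kb (30.6%) in sgNeg and 30.7 kb (7.67%) in sgNpm1A, a ratio of 0.251. The count of peaks therefore differed less between the lists than the length they covered, and distal peaks had a median width of 513 bp (sgNeg) and 346 bp (sgNpm1A). The whole H3K27Ac lists covered 220.2 Mb in sgNeg and 194.6 Mb in sgNpm1A. Of the sgNeg peaks in the windows, 39 (40.6%) overlapped a sgNpm1A peak, and of the sgNpm1A peaks 40 (69.0%) overlapped a sgNeg peak. A q-value under 1e-05 was reached by 9 sgNeg and 2 sgNpm1A peaks of the windows. The same shares over all peaks of each list were not computed, so these counts are not set against the lists as a whole.

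The share of the window under H3K27Ac peaks was smaller in sgNpm1A for 9 of the 9 genes, as it was for 63.5% of all genes. FOS stood first in sgNeg, with 68.4% of its window covered, a share that 1.31% of all genes exceeded, and had 4.51% in sgNpm1A, which 60.0% of genes exceeded. JUNB had 54.4% and 12.8%, and JUND 54.1% and 17.6%. These 3 AP-1 genes had the most covered windows in sgNeg, whereas JUN had 8.9% and 2.30%, close to the sgNeg median of all genes of 9.81%. EGR1 had 26.2% and 15.4%, and DUSP1 19.3% and 10.2%. KLF2 had 18.2% and 1.5%, KLF4 12.4% and 2.73%, and KLF6 19.2% and 3.75%. The order of the genes thus changed between the lists. JUND, EGR1, JUNB and DUSP1 had shares above the sgNpm1A median of all genes of 6.73%, and FOS, JUN and the 3 KLF genes had shares below it.

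**Figure D2:**
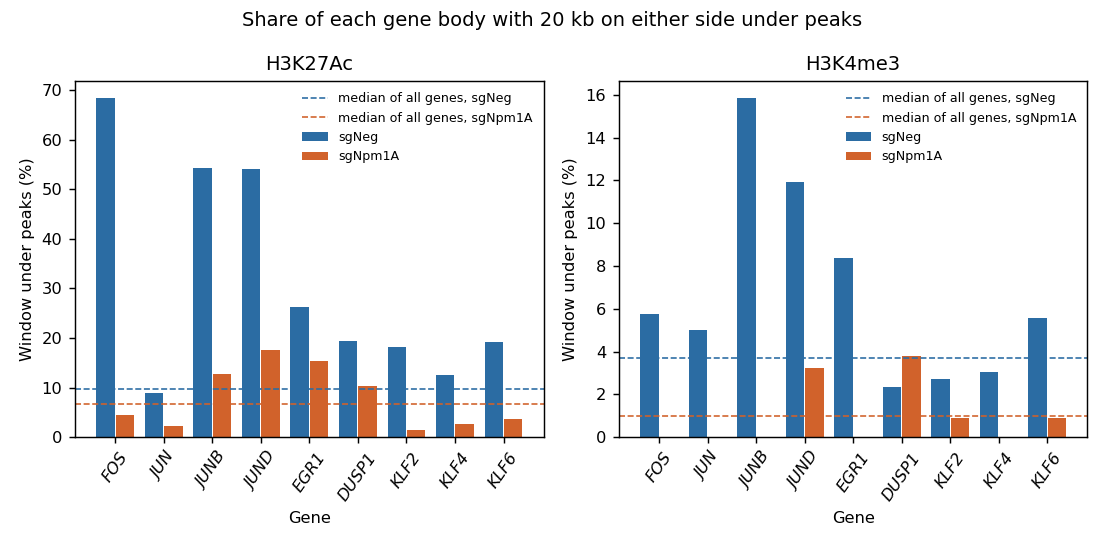
Share of each gene body with 20 kb on either side that lay under peaks, in percent, for H3K27Ac (left) and H3K4me3 (right), with bars for the sgNeg and sgNpm1A lists and dashed lines for the medians of all protein-coding genes. FOS has the highest H3K27Ac bar in sgNeg (68.4%) and a low one in sgNpm1A (4.51%), and DUSP1 is the gene with more H3K4me3 cover in sgNpm1A (3.79%) than in sgNeg (2.34%). The narrowest H3K4me3 peak was 110 bp in the sgNeg list and 245 bp in the sgNpm1A list.

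In sgNeg, distal H3K27Ac around FOS was the most extensive of the 9 genes. A 14036 bp peak 10.7 kb downstream of the start had a fold of 5.45 at percentile 98.7, and peaks of 3152 and 2851 bp between it and the gene had folds of 3.90 and 5.46. In sgNpm1A the stretch of the widest peak held 3 peaks of 209, 161 and 552 bp, with folds of 2.91, 3.09 and 2.66. Upstream of FOS, 9 sgNeg peaks and 1 sgNpm1A peak were listed. In the sgNpm1A list the downstream block of FOS was therefore broken into short peaks of lower fold.

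The window of JUN held little distal H3K27Ac, with 7 distal peaks in sgNeg and 3 in sgNpm1A. The highest in sgNpm1A was a 273 bp peak 15.0 kb upstream with a fold of 3.69 at percentile 95.1, against 2.90 at percentile 66.0 in sgNeg. The JUNB and JUND windows lie in gene-rich parts of chromosome 19, and several of their distal peaks lay over starts of neighbours. In the JUNB window these were HOOK2, a gene for a microtubule linker protein, PRDX2, a peroxiredoxin gene, THSD8 and RNASEH2A, a gene for the catalytic subunit of ribonuclease H2. The peak over a HOOK2 start 18.4 kb upstream had a fold of 2.83 (percentile 56.8) in sgNeg and 2.80 (percentile 28.3) in sgNpm1A. The peak over the PRDX2 start downstream had 2.97 (percentile 72.6) and 2.96 (percentile 53.0). Their folds were thus close, and their percentiles lower in sgNpm1A. Other neighbours differed more. A peak over a HOOK2 start 11.9 kb upstream had 4.12 at percentile 96.6 in sgNeg and overlapped a peak of 2.78 at percentile 24.8 in sgNpm1A, and the peak over the RNASEH2A start had 3.31 at percentile 89.5 and overlapped one of 2.74 at percentile 17.9. A HOOK2 peak 15.1 kb upstream (2.90 in sgNeg) overlapped no sgNpm1A peak. The JUNB promoter peak of sgNeg also lay over another start of HOOK2. Within its stretch, sgNpm1A had a 1000 bp peak 5.70 kb upstream with a fold of 4.83 at percentile 99.5.

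Upstream of JUND, a 4949 bp sgNeg peak 8.38 kb away had a fold of 7.27 at percentile 99.7, and a 200 bp sgNpm1A peak in the same stretch had 2.85. Downstream of JUND the sgNpm1A list held the wider peak. A 7258 bp sgNpm1A peak, the widest in any window of that list, began 16.1 kb from the start, over a start of IQCN, with a fold of 3.17. In sgNeg the same stretch held peaks of 3342, 952 and 871 bp, with folds of 3.18, 3.07 and 2.74. This peak made up most of the 17.6% of the JUND window covered in sgNpm1A.

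EGR1 was the one gene with more H3K27Ac peaks in sgNpm1A (13) than in sgNeg (9), and DUSP1 had 10 in each. At EGR1, a peak about 11 kb upstream had a fold of 3.15 at percentile 84.0 in sgNeg and 3.85 at percentile 96.8 in sgNpm1A. A peak over the start of REEP2, a membrane-shaping protein gene upstream of EGR1, had 2.69 at percentile 35.5 and 3.38 at percentile 87.0. At DUSP1, a peak just over 2 kb upstream had 2.80 at percentile 52.9 and 3.47 at percentile 90.4. These are examples of shared peaks with a higher percentile in sgNpm1A. Of the distal sgNeg peaks that overlapped a sgNpm1A peak, 4 of 7 at EGR1 and 4 of 6 at DUSP1 had a higher percentile in sgNpm1A, as did 2 of 2 at JUN, 3 of 6 at JUND, 2 of 8 at JUNB, 0 of 1 at FOS, 1 of 2 at KLF4 and 3 of 3 at KLF6. Over all 9 genes this was so for 19 of 35. Where a sgNeg peak overlapped more than 1 sgNpm1A peak, the one of highest fold was taken. That choice can raise these counts and cannot lower them. These 35 were among 85 distal sgNeg peaks, and the others overlapped no sgNpm1A peak and are left out of these counts. The same share around all genes was not computed. EGR1 and DUSP1 both lie on chromosome 5, which held 8.18% of sgNeg and 8.16% of sgNpm1A H3K27Ac peaks on 5.84% of the length, and its part in the result was not tested.

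Around the KLF genes, few distal peaks were shared, but this was not particular to them. Of the distal sgNeg peaks, 1 of 12 at FOS and 2 of 7 at JUN also overlapped a sgNpm1A peak. The counts were 8 of 10 at JUNB, 6 of 13 at JUND, 7 of 8 at EGR1 and 6 of 9 at DUSP1. Such shares around all genes were not computed. KLF2 had 9 distal sgNeg peaks, the highest a 2062 bp peak 12.7 kb downstream with a fold of 3.86, and 3 short sgNpm1A peaks, of which 0 overlapped. KLF4 had 9 and 3 distal peaks, with 2 of each overlapping. KLF6 had 8 and 6, with 3 overlapping. Distal peaks at like distances from the start were present in all 4 lists at JUND, DUSP1 and KLF6. The KLF6 peak was chosen for description after its values were seen. It lay about 17 kb upstream, with an H3K27Ac fold of 4.69 at percentile 97.8 in sgNeg and 4.99 at percentile 99.6 in sgNpm1A, and it was the highest H3K27Ac peak of any of the 9 windows in sgNpm1A. It was 1072 bp wide in sgNeg and 525 bp in sgNpm1A. The sgNeg peaks next to it, 18.5 and 20.0 kb upstream, overlapped no sgNpm1A peak. The KLF6 window thus had a distal peak as high in fold in sgNpm1A as in sgNeg, but narrower. Its promoter peaks were listed in sgNeg alone.

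**Figure D3:**
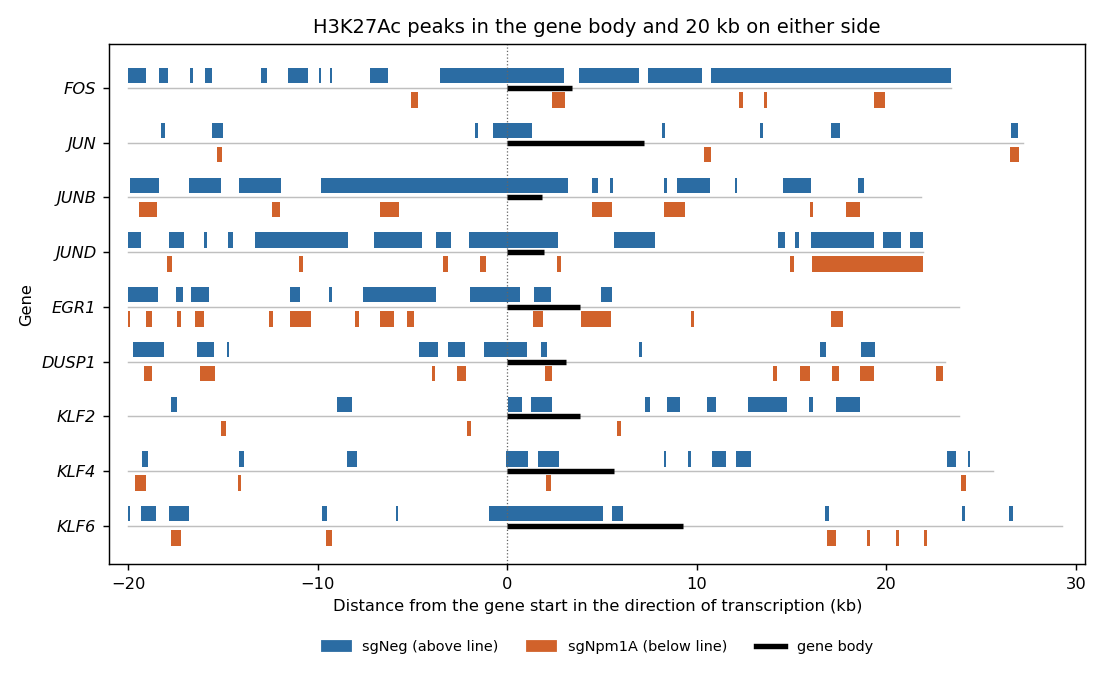
H3K27Ac peaks of sgNeg (above each line) and sgNpm1A (below) plotted by distance from the gene start in kb, in the direction of transcription, with the gene body as a black bar and the window of 20 kb on either side as a gray line. A sgNeg peak lies over or within 34 bp of every start and no sgNpm1A peak does, and the 14036 bp sgNeg peak downstream of FOS and the 7258 bp sgNpm1A peak downstream of JUND are the widest of their lists in these windows.

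H3K4me3 promoter peaks, taken within 1 kb of the start of the RefSeq gene record, were listed for 9 of 9 genes in sgNeg and for 0 of 9 in sgNpm1A. The shares of all genes were 64.7% and 7.66%, and 58.7% of all genes had a peak in sgNeg and none in sgNpm1A. Of the 12715 genes with a promoter peak in sgNeg, 11541 had none in sgNpm1A, so that the absence at the 9 genes was near that of genes with a peak in general. The median percentile of the 9 genes was 98.8 in sgNeg, against 83.0 for all genes.

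JUNB had the highest H3K4me3 of the 9, with a 1859 bp peak, a fold of 10.8 and a rank of 1183 of 353628. FOS came next, with 1656 bp, a fold of 10.2 and a rank of 1618. JUND (1157 bp), KLF4 (1045 bp) and KLF6 (1086 bp) shared a fold of 8.11 at percentile 98.8. EGR1 had 1243 bp and a fold of 6.66, and JUN 1190 bp and a fold of 5.82. DUSP1 and KLF2 had the lowest, both with a fold of 3.74 at percentile 77.0, and widths of 165 and 504 bp. The genes low in H3K4me3 were thus DUSP1 and KLF2. JUN and DUSP1, the lowest of the 9 genes in sgNeg H3K27Ac (percentiles 84.1 and 85.0), stood at percentiles 97.0 and 77.0 for H3K4me3.

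In fragments at the summit, JUNB had 51 (exact Poisson 95% interval 38.0 to 67.1) and FOS 48 (35.4 to 63.6), so that these neighbours in the order could not be told apart. JUND, KLF4 and KLF6 had 38 each (26.9 to 52.2), EGR1 31 (21.1 to 44) and JUN 27 (17.8 to 39.3). DUSP1 and KLF2 had 17 each (9.90 to 27.2), below the intervals of JUNB and FOS. The intervals cover counting error only. The lowest summit listed in sgNpm1A had 10 fragments. For the same fold as in sgNeg, 39.1 fragments would have been needed at FOS, 41.5 at JUNB and 13.7 at DUSP1 and KLF2. The needed numbers thus lay far above the lowest listed summit at FOS and JUNB and close to it at DUSP1 and KLF2. Each fold is relative to the background of its own library. Whether library depth accounts for the unlisted peaks was not tested.

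**Figure D4:**
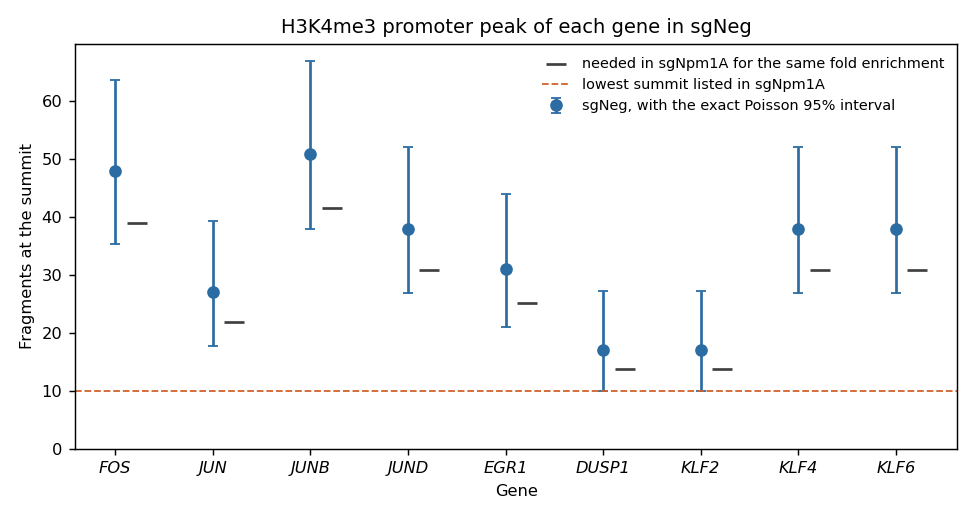
Fragments at the summit of the H3K4me3 promoter peak of each gene in sgNeg (circles, with exact Poisson 95% intervals), the number needed in sgNpm1A for the same fold enrichment (dashes), and the lowest summit listed in sgNpm1A (dashed line at 10). The needed number lies above the line for all 9 genes, from 13.7 at DUSP1 and KLF2 to 41.5 at JUNB.

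The highest H3K4me3 promoter peak lay wholly downstream of the gene start in 9 of 9 genes, which was so for 66.7% of all genes with such a peak. It began between 33 bp (DUSP1) and 172 bp (KLF4) after the start, with 56 bp at JUND, 77 bp at FOS, 82 bp at KLF6, 93 bp at EGR1, 121 bp at JUNB, 127 bp at KLF2 and 139 bp at JUN. The median summit was 708 bp after the start in these genes and 353 bp in all genes. JUN and EGR1 had a second peak on the other side of the start, 710 bp wide from 448 bp upstream at JUN and 174 bp wide from 849 bp upstream at EGR1. No start itself thus lay under a H3K4me3 peak, and in sgNeg such a peak was listed for 11.4% of all genes. For H3K27Ac in sgNeg this was so for 8 of the 9 starts and for 48.7% of all genes. H3K27Ac peaks were called as broad and H3K4me3 peaks as narrow, so these counts do not compare the marks. In sgNpm1A the nearest H3K4me3 peak was 13329 to 38906 bp from the start, with a median of 20355 bp, against 14901 bp for all genes.

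In the whole windows, the sgNeg list held 78 H3K4me3 peaks (12 promoter, 66 distal) and the sgNpm1A list 9 (all distal). They covered 26.3 kb of 395.3 kb (6.65%) and 3.83 kb (0.968%), a ratio of 0.146. The whole H3K4me3 lists covered 93.65 Mb in sgNeg and 55.35 Mb in sgNpm1A. With a q-value under 1e-05, 26 and 2 were listed in the windows. The sgNpm1A peaks lay in 4 of the 9 windows, 3 at JUND, 4 at DUSP1 and 1 each at KLF2 and KLF6. Of them, 5 (55.6%) overlapped a sgNeg peak, and 5 (6.41%) of the sgNeg peaks in the windows overlapped one of them. For H3K4me3 too, such shares over all peaks of each list were not computed. The share of the window under H3K4me3 was smaller in sgNpm1A for 8 of 9 genes, as for 87.7% of all genes.

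All 3 sgNpm1A peaks of JUND lay 16.6 to 20 kb downstream, within the stretch of the 7258 bp H3K27Ac peak. Their summits held 16, 12 and 10 fragments, against 20, 16 and 17 at the overlapping sgNeg peaks. The KLF6 peak 17.3 kb upstream, at the place of the H3K27Ac peak described above, held 26 fragments in sgNeg (17 to 38.1) and 17 in sgNpm1A (9.90 to 27.2), with folds of 5.62 and 4.58. Position was compared by distance from the gene start, since the lists of the marks are on different builds. All 5 distal peaks shared by the lists had a lower fold in sgNpm1A, with the smallest gap at JUND (4.37 and 4.32) and the largest at KLF6.

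DUSP1 was the exception in cover, with 2.34% of its window under H3K4me3 in sgNeg and 3.79% in sgNpm1A. It had more H3K4me3 peaks in sgNeg (6) than in sgNpm1A (4). The widest of its sgNeg peaks was 235 bp, whereas the narrowest peak of the whole sgNpm1A list was 245 bp. The covers thus rest on peaks of unlike least width, and the part of this in the difference was not tested. Its 4 sgNpm1A peaks lay 15.8 and 19.0 kb upstream and 16.0 and 22.4 kb downstream, with 12 to 17 fragments each, and 1 of them overlapped a sgNeg peak. Chromosome 5 held 10.3% of the sgNeg and 11.9% of the sgNpm1A H3K4me3 peaks on 5.88% of the length, and its part in the result was not tested. JUNB, with the most H3K4me3 cover in sgNeg (15.8%), had 16 peaks there, among them peaks over starts of PRDX2 (fold 7.28) and THSD8 (fold 3.12), and had 0 in sgNpm1A. FOS, JUN, EGR1 and KLF4 also had 0.

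**Figure D5:**
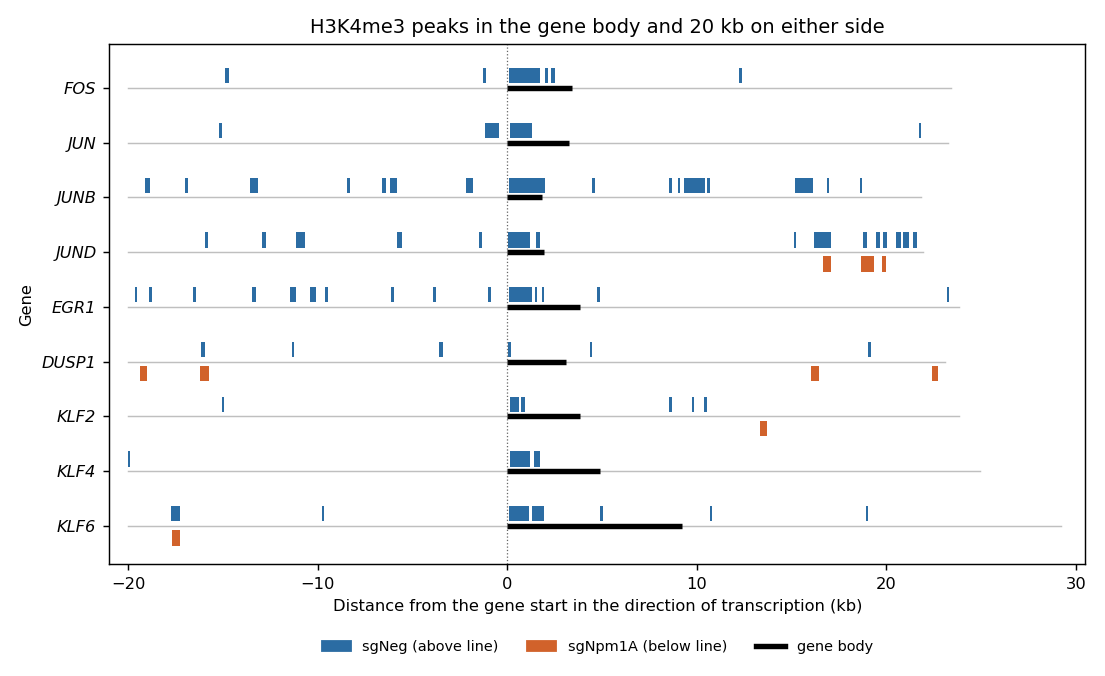
H3K4me3 peaks of sgNeg (above each line) and sgNpm1A (below) by distance from the gene start in kb, in the direction of transcription, with the gene body as a black bar and the window of 20 kb on either side as a gray line. The sgNeg promoter peaks begin just after each start, and the 9 sgNpm1A peaks lie 13.3 kb or more from it, at JUND, DUSP1, KLF2 and KLF6.

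In a list of 41 other immediate early, AP-1, SRF-pathway, feedback and KLF/SP genes, 39 had a H3K27Ac promoter peak in sgNeg and 18 in sgNpm1A, with a median percentile of 97.1 and 0. The percentile was lower in sgNpm1A for 37 and higher for 2. For H3K4me3, 34 and 2 had a promoter peak, and the percentile was lower for 33 and higher for 1. The list was thus placed like the 9 genes in both marks, with a median above that of all genes in sgNeg and at or below it in sgNpm1A.

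The highest H3K27Ac of the list in sgNeg was at KLF13 (fold 9.21), KLF7 (8.79) and IER2 (8.18), an immediate early gene. In sgNpm1A, KLF13 had a fold of 3.24 at percentile 79.5, and KLF7 and IER2 had no promoter peak. The highest H3K4me3 was at ZFP36 (fold 15.8), which encodes a protein that speeds the decay of cytokine mRNA, and at KLF13 and KLF10, an early gene of TGF-beta signaling (13.7 each). None of the 3 had a H3K4me3 promoter peak in sgNpm1A. KLF5 and KLF8 had no promoter peak of either mark in sgNeg, and EGR2, EGR3, KLF7, KLF12 and SP1 had none for H3K4me3. Only the gene record start counted for H3K4me3, so a peak at another transcript start of these genes would be missed. EGR3, a relative of EGR1, had a higher H3K27Ac percentile in sgNpm1A (99.1, fold 4.48) than in sgNeg (92.0, fold 3.44), as did KLF15 (79.3 against 58.5), and for H3K4me3 KLF17 (78.7 against 77.0). EGR3 differed in this from EGR1, which had no promoter peak in sgNpm1A.

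The 5 genes outside both lists whose promoter percentiles over the 4 lists were nearest to the median of the 9 genes were C12orf75, SAR1A, B3GALT6, IPMK and IRF2BP1, at a Euclidean distance of 0.0201 to 0.0732 percentile points. This pattern, high in both sgNeg lists and 0 in both sgNpm1A lists, was common, since 2694 of 19098 genes lay within 5 points of it. Of the 9 genes, KLF6 (1.75), JUND (2.11), EGR1 (2.22) and JUNB (2.22) lay within that distance. FOS (82.6) and KLF4 (45.3) were farthest, through their sgNpm1A H3K27Ac peaks.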

How the data were processed

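ChIP-seq (ChIPmentation) of H3K27Ac and H3K4me3 in OCI-AML3 cells gave the 4 peak lists used here. Per the labels, cells were cultured for 3 days (72 h), whereas the text of the study gives a longer time for ChIP-seq. The submitters' processing notes name bcl2fastq 2.17, Trimmomatic 0.33, Bowtie 1.1.2, MACS2 2.1.0 and deepTools, with no role or order. Peaks were called by the authors library by library, broad for H3K27Ac and narrow for H3K4me3, and the threshold and the use of the inputs are not given in the sources used here. The deposited fold enrichment is a ratio to the expected pileup, averaged over a H3K27Ac region and taken at a H3K4me3 summit. The deposited −log10 p-values and −log10 q-values belong to the same region or summit, and the deposited summit offset gave summit positions. The deposited score was not used.

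The notes name hg38. H3K27Ac peaks on chromosome 1 ended at 249218478 and 249212461, beyond the hg38 end, which places both lists on GRCh37. H3K4me3 peaks on chromosome 17 ended at 83201880 and 83201881, beyond the hg19 end, which places both on GRCh38. Nothing was converted. For H3K27Ac, any of 146566 transcript starts of GENCODE 44 mapped to GRCh37 counted. For H3K4me3, the start of the RefSeq gene record alone was used, whereas the design called for any transcript start. Of 20037 RefSeq genes, 15843 had a strand in the RefSeq promoter table, others took it from GENCODE, and 19663 were used.

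An overlap was at least 1 bp. Peak look-ups were tested on simulated data. A fold of (pileup + 1)/(background + 1) gave whole H3K4me3 pileups, within 0.01, for 100% of peaks of either list and gave their p-values in 100%, so fragments at summits could be counted. Motif shares are over 15843 RefSeq promoters (GRCh38.p14). Python 3.11.15, pandas 2.3.3, numpy 2.4.6, scipy 1.17.1 and matplotlib 3.10.9 were used.

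The members and lists were chosen with earlier results of these data known. Genes named beside the 9 were, of the 41 related genes, the 3 with the highest sgNeg percentile per mark, all without a sgNeg promoter peak and all with a higher percentile in sgNpm1A. Neighbours whose start lay under a distal peak and the 5 genes nearest to the median profile were also named. Alternatives were other promoter widths and flanks, stricter q-values, the peaks of lowest p-value in equal number, and the gene record start. The p-value columns served only for ranking, and no test between groups was possible with 1 library per group.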

Additional observations from a re-analysis of the deposited data

How the results depend on the processing

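The promoter results kept their direction under all alternatives run, and 38 of 60 alternative values stayed close to those reported while 22 moved. The H3K27Ac promoter count in sgNpm1A, 2 of 9, was 0 with the 20000 peaks of lowest p-value, with the gene record start alone and with a q-value under 1e-05, 1 with a promoter of 500 bp or a q-value under 0.01, and 6 with a promoter of 2 kb, where the median sgNpm1A percentile was 6.46 in place of 0. In sgNeg it was 5 in place of 9 with a q-value under 1e-05. The ratio of H3K27Ac length in the windows, 0.251, was 0.156 with 10 kb on either side, 0.0897 in the gene body, 0.0457 with the 20000 peaks and 0.0280 with a q-value under 1e-05. The ratio of H3K27Ac peak counts, 0.604, was 0.286 in the gene body, 0.267 with the 20000 peaks and 0.222 with that q-value. For H3K4me3 the length ratio, 0.146, was 0.0222 with 10 kb, 0 in the gene body and 0.0459 with that q-value, and the count ratio, 0.115, was 0.0222, 0 and 0.0769, and 0.273 with the 20000 peaks. The cause of these moves was not tested.

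No paired analysis was possible because each group held 1 library, and for the same reason no replicate was left out. A peak below the calling limit is not listed, so absence from a list is not absence of the mark. The sgNpm1A H3K4me3 list is shorter for all genes, and library depth and guide RNA cannot be told apart.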
